A study of Mus musculus with 16 samples.

Results

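Genes that set how mitochondria couple respiration to ATP supply were followed in mouse ventricular myocytes: the uncoupling proteins Ucp2 and Ucp3, the ATP/ADP carriers Slc25a4 and Slc25a5, the ATP synthase inhibitor Atpif1, the phosphate carrier Slc25a3, the outer membrane channels Vdac1, Vdac2 and Vdac3, and Ppif, the gene of cyclophilin D. These 10 members, of 35682 genes in the count table, were chosen by name with the genotype contrast below already known, so their own values in that contrast are a description: whether a member passed the threshold of the fit over all genes is stated, and supports nothing. The 16 samples were adult ventricular myocytes from 8 B3AR-Tg mice and 8 WT littermates, each from a separate animal per the labels, and every animal of both groups had undergone TAC (transverse aortic constriction, a banding of the aorta that overloads the left ventricle) 9 weeks earlier. Cells were freed by Langendorff perfusion of the heart and plated for an hour before RNA was taken. B3AR-Tg names a transgene of the beta-3 adrenergic receptor. Its promoter, the species of the receptor sequence, and the age and sex of the animals are not given in the sources used here, and a group without surgery was not analysed here.

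The respiratory chain pumps protons out of the mitochondrial matrix, and ATP synthase uses their return to make ATP. Uncoupling proteins are inner membrane carriers that can let protons back without ATP synthesis, although for Ucp2 and Ucp3 transport of metabolites and a link to fatty acid use are also described. The ATP/ADP carriers exchange matrix ATP for cytosolic ADP, the phosphate carrier imports phosphate for ATP synthase, and VDAC channels pass these molecules across the outer membrane. The Atpif1 product, IF1, blocks ATP synthase when it runs in reverse and consumes ATP. Cyclophilin D regulates the permeability transition pore, an opening of the inner membrane linked to cell death in the overloaded and the reperfused heart.

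The promoter windows of Ucp2, Ucp3 and Atpif1 are shown because Ucp2 and Atpif1 were the 2 members that passed the threshold in the comparison below and Ucp3 lies next to Ucp2 on chromosome 7. The windows are from RefSeq on GRCm38.p6, span 300 bases around the annotated start, most of them before it, and lie at chr7:100493108-100493407 (Ucp2, plus strand), chr7:100472741-100473040 (Ucp3, plus strand) and chr4:132535365-132535664 (Atpif1, minus strand). Capitals mark GGGCGG (a GC box), CACGTG (an E-box) and TGACG (a cyclic AMP response half-site), each on either strand.
Ucp2: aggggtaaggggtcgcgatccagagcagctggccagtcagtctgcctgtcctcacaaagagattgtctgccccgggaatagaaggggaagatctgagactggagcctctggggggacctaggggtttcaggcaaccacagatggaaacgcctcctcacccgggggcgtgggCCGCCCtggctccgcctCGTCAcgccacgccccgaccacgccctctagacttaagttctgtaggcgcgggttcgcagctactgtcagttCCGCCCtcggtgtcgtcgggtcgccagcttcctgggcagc
Ucp3: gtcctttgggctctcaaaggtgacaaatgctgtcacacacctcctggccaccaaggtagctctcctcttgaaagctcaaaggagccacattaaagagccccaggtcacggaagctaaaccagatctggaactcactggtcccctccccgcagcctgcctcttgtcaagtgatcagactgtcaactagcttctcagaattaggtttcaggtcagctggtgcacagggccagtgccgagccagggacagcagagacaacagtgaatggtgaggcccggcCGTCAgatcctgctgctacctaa
Atpif1: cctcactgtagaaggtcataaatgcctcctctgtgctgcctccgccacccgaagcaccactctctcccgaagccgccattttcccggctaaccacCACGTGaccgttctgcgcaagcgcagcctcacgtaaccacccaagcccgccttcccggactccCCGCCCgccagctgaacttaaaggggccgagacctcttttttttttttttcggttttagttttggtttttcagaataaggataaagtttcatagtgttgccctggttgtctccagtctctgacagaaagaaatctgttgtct
The Ucp2 window held GC boxes and a half-site, the Ucp3 window a half-site and no GC box, and the Atpif1 window an E-box and a GC box.

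Of the 10 members, 8 had a window in the RefSeq table, and Vdac2 and Vdac3 did not. The GC box was in a window of 7 of the 8 members, all but Ucp3, and in 35.7% of all 32851 windows of the same length. The half-site was in windows of 4 members (Slc25a3, Ucp2, Ucp3 and Vdac1) and in 20.8% of all windows. Members were counted by gene, with a hit in any window, while the percentages are by window. Vdac1 had more than a single window, with the GC box and the half-site in different ones. Atpif1 was the only member of the 8 with the E-box, which 7.15% of all windows held. The full cyclic AMP response element TGACGTCA, which contains the half-site, was in 1.79% of all windows. The palindromic site of NRF-1 was in 0.971% of them and TCAAGGTCA, an ERR element, in 0.423%. The PPAR element was searched as a direct repeat of AGGTCA with any base between the copies, and was found in 0.0396%. None of these last 4 sequences was in a member's window, which says only that these letters are not in this stretch.

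Library totals ranged from 5985335 to 14365864 counts, between 14070 and 15713 genes had a count in a library, and mitochondrially encoded genes took 18.8% to 27.5% of the counts. Levels are given below as CPM, counts scaled to a common library size with TMM factors, and group values as mean ± SD with n = 8 animals. The floor of 3 counts lay between 0.201 and 0.487 CPM, which covers counting error only. Mouse Adrb3, the gene for which the line is named, held 0 to 4 counts in WT libraries and 0 to 3 in B3AR-Tg libraries. Because the species of the transgene's receptor sequence is not given, these counts need not include the transgene, and its expression cannot be read from them. The 7 myocyte markers (Myh6, Actc1, Tnnt2, Tnni3, Pln, Ryr2 and Mb) summed to 40022 to 50958 CPM in WT and 45913 to 53748 CPM in B3AR-Tg. Markers of other cells were far lower: 6 fibroblast markers summed to a median of 77.7 CPM (highest 119) in WT and 24.8 CPM (highest 46.5) in B3AR-Tg, 6 endothelial markers to 74.9 to 113 and 30.4 to 132 CPM, 6 mural cell markers to 87.2 to 162 and 47.4 to 142 CPM, and 8 leukocyte markers to 4.39 to 15.8 and 0.883 to 6.93 CPM. All 4 adipocyte markers were at or under 3 counts in every library. In bulk RNA, fewer cells of a type and less RNA per cell cannot be told apart.

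All 10 members passed the filter on low counts. In a fit over the 10945 tested genes (edgeR quasi-likelihood test, Benjamini-Hochberg adjusted p under 0.05), 1 member was called higher in B3AR-Tg (Ucp2), 1 was called lower (Atpif1) and 8 were not called. In the same fit 4.91% of tested genes were called, 2.03% higher and 2.88% lower, and nothing is read from the members' share because this contrast was known when they were chosen. With library totals alone in place of TMM factors the split of calls over all genes moved from 222 higher and 315 lower to 346 higher and 165 lower. The log2 fold change of B3AR-Tg against WT was positive for 8 of the 10 members and for 51.1% of all tested genes, with a median of 0.06 for the members and 0.01 for all.

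**Figure D1:**
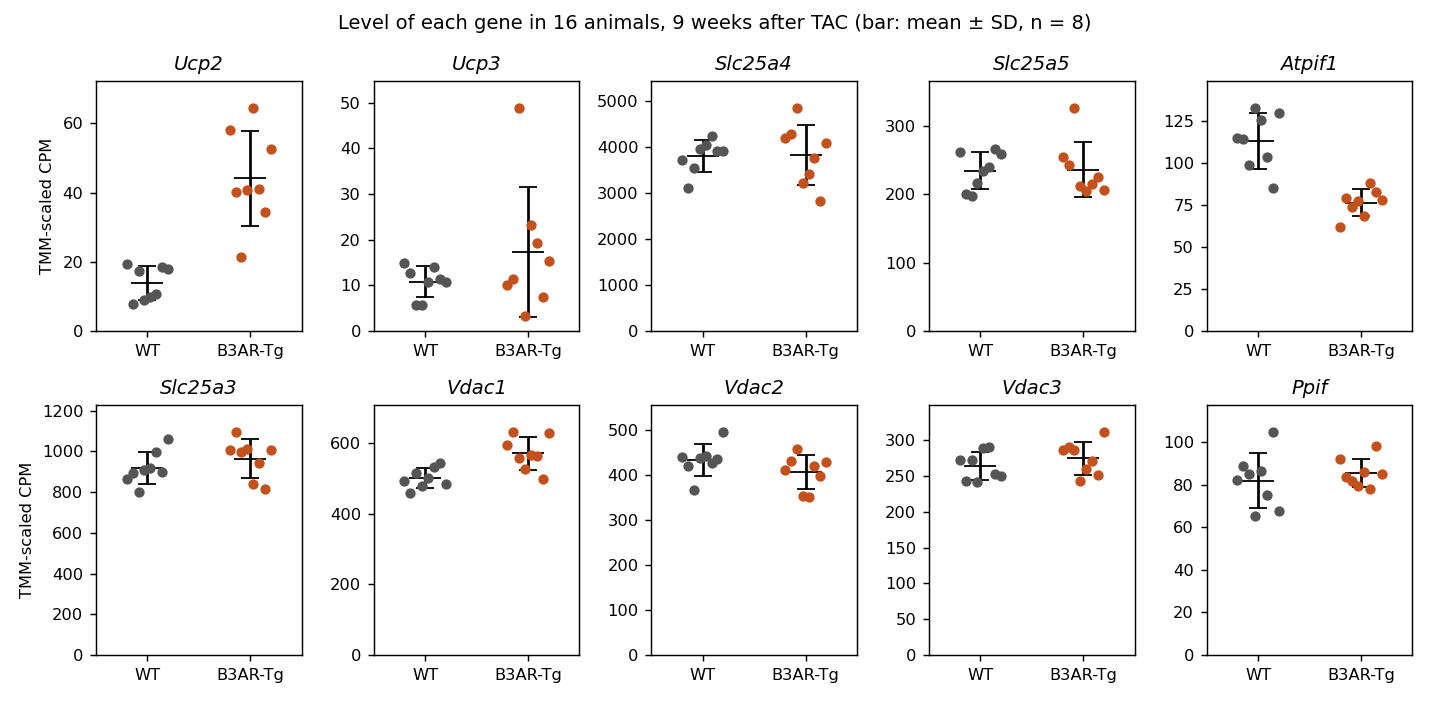
Level of each of the 10 genes in TMM-scaled CPM (y axis, from 0) in 8 WT and 8 B3AR-Tg animals; each point is an animal, the long dash is the mean and the bar is the SD. Ucp2 is the gene whose groups do not overlap, the Atpif1 groups meet at their edge, 6 of 8 B3AR-Tg animals lie above WT for Vdac1, and the other 7 genes overlap more.

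Ucp2 (ENSMUSG00000033685), the uncoupling protein found in many tissues, rose 3.19-fold. In WT its level was lowest at 7.99 CPM, with a median of 14.1 and a highest value of 19.3 CPM. In B3AR-Tg the lowest was 21.4 CPM, the median 40.8 and the highest 64.4 CPM. Every B3AR-Tg animal was above every WT animal, which made it the 1 member of 10 whose groups did not overlap. Of all tested genes 0.448% were separated in this way, 0.201% with B3AR-Tg above and 0.247% below. The gap was narrow at its edge, between WT replicate 1 at 19.3 CPM and B3AR-Tg replicate 3 at 21.4 CPM. The other 7 B3AR-Tg animals lay at 34.4 CPM or more. The log2 fold change was 1.68 with a standard error of 0.22, a 95% interval of 1.25 to 2.10, and lay between 1.58 and 1.78 when each animal was left out in turn.

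Ucp2 is also abundant in leukocytes. The summed leukocyte markers had a median of 7.51 CPM in WT, against 5.53 CPM in B3AR-Tg. With that sum as a covariate, an alternative chosen after seeing the data, the Ucp2 log2 fold change was 1.84. Of the 8 leukocyte markers only 2 passed the filter on low counts, so the sum is an uncertain measure of leukocyte RNA. A part of leukocytes in the Ucp2 level was not tested.

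Ucp3 (ENSMUSG00000032942), the form found mainly in muscle and heart, did not pass the threshold. In WT it ranged from 5.80 to 14.9 CPM with a median of 11.1 CPM. In B3AR-Tg it ranged from 3.41 to 48.9 CPM with a median of 13.4 CPM, so that the lowest and the highest of all 16 animals were both B3AR-Tg. The lowest was B3AR-Tg replicate 4, with 21 counts, and the highest was B3AR-Tg replicate 3, with 468 counts. The coefficient of variation of Ucp3 was 31.7% in WT and 81.7% in B3AR-Tg, whereas that of Ucp2 was 35.0% and 31.2%. At 0.69, with a standard error of 0.36 and an interval of −0.01 to 1.40, its log2 fold change was the second largest among the members. It was 0.27 without B3AR-Tg replicate 3.

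The uncoupling proteins did not move together in every B3AR-Tg animal. B3AR-Tg replicate 3 had the highest Ucp3 of its group and the lowest Ucp2, and B3AR-Tg replicate 4 had the lowest Ucp3 with a Ucp2 level (40.8 CPM) near the group's median. Other animals went the same way for both genes. B3AR-Tg replicate 5 had the highest Ucp2 (64.4 CPM) and, after replicate 3, the highest Ucp3 (23.1 CPM). B3AR-Tg replicate 7 was low in its group for both, at 34.4 CPM of Ucp2 and 7.47 CPM of Ucp3. A relation among the B3AR-Tg animals without replicate 3 was not tested. The log2 ratio of Ucp2 to Ucp3 (of CPM, without correction for length) was 0.36 ± 0.73 in WT against 1.66 ± 1.38 in B3AR-Tg, 1.30 higher. In B3AR-Tg 5 animals were above the highest WT ratio and 1 was below the lowest, with a range from −1.19 to 3.58. After the genotype means were removed, the correlation of Ucp2 with Ucp3 over the 16 animals was −0.17, given as a description.

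**Figure D2:**
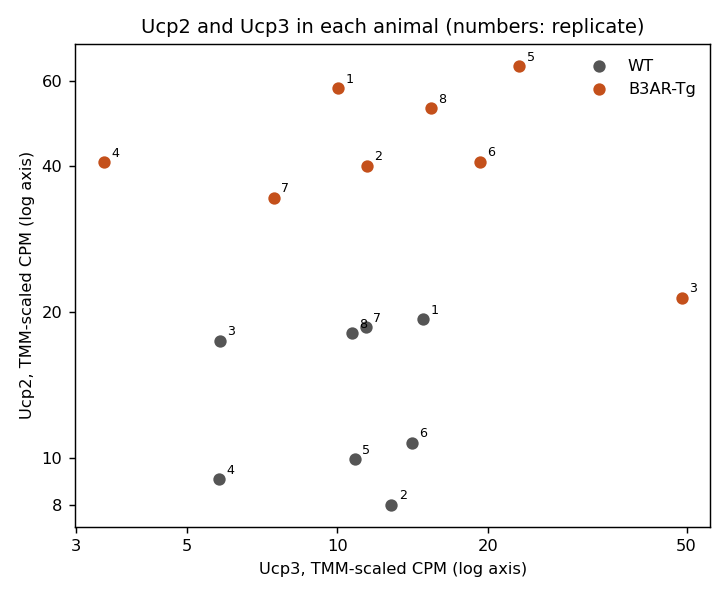
Ucp2 (y axis) against Ucp3 (x axis), both in TMM-scaled CPM on log axes, in 8 WT and 8 B3AR-Tg animals, with the replicate number beside each point. The B3AR-Tg animals lie above WT on the Ucp2 axis and spread on both sides of WT on the Ucp3 axis, from replicate 4 at 3.41 to replicate 3 at 48.9 CPM.

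In RefSeq gene order the genes around this pair are Ppme1, C2cd3, Ucp3, Ucp2, Dnajb13 and Coa4. Dnajb13 did not pass the filter on low counts, and of the other 5, Ucp2 was the one that was called. Log2 fold changes were 0.06 for Ppme1 (standard error 0.11), 0.28 for C2cd3 (standard error 0.23) and −0.13 for Coa4 (standard error 0.17).

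Slc25a4 (ENSMUSG00000031633) encodes ANT1, the main ATP/ADP carrier of heart and skeletal muscle. In WT it ranged from 3118 to 4256 CPM with a median of 3921 CPM, and in B3AR-Tg from 2835 to 4858 CPM with a median of 3922 CPM. The B3AR-Tg range enclosed the WT range, and the log2 fold change was 0.01 with a standard error of 0.10 and an interval of −0.19 to 0.21.

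Slc25a5 (ENSMUSG00000016319) encodes ANT2, the carrier of proliferating and many non-muscle cells. It ranged from 198 to 267 CPM in WT (median 237 CPM) and from 205 to 327 CPM in B3AR-Tg (median 221 CPM). The groups overlapped, with B3AR-Tg replicate 3 the highest of the 16 animals at 327 CPM. WT replicates 2 and 3, at 200 and 198 CPM, lay below the lowest B3AR-Tg animal. Its log2 fold change was 0.01 with a standard error of 0.10 and an interval of −0.19 to 0.20, and the sign, like that of Slc25a4, turned under several alternatives. The log2 ratio of Slc25a5 to Slc25a4 was −4.02 ± 0.14 in WT and −4.02 ± 0.20 in B3AR-Tg. The balance of the carriers thus differed by 0.01 between genotypes, less than the spread between animals.

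Among the other mitochondrial carriers of the SLC25 family (45 genes with Ucp1, Mtch1 and Mtch2), 35 were tested, 1 was called higher and none lower, with a median log2 fold change of 0.06. At an unadjusted p under 0.05 there were 8, beside 2117 of the 10945 genes over the whole table, and 2.03% of all tested genes were called higher. The gene called was Slc25a12, the aspartate/glutamate carrier of the malate-aspartate shuttle. It rose to 193 ± 19.6 CPM in B3AR-Tg, against 155 ± 13.4 CPM in WT (edgeR adjusted p = 0.0228), at a log2 fold change of 0.32 and a standard error of 0.08. Without WT replicate 4 its adjusted p was 0.0532 at a log2 fold change of 0.29, and with the replicate block it was 0.0722 at 0.31. Ucp1, the uncoupling protein of brown fat, did not pass the filter on low counts.

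Atpif1 (ENSMUSG00000054428) fell 1.48-fold. In WT it ranged from 85.2 to 133 CPM with a median of 114 CPM. In B3AR-Tg it ranged from 62.3 to 87.9 CPM with a median of 77.8 CPM. The groups overlapped by 1 animal on each side, WT replicate 7 at 85.2 CPM and B3AR-Tg replicate 6 at 87.9 CPM. All other WT animals were above all B3AR-Tg animals. Its log2 fold change was −0.57 with a standard error of 0.09 and an interval of −0.75 to −0.39, and lay between −0.62 and −0.53 when each animal was left out in turn.

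Of the 6 fibroblast markers 4 were called lower in B3AR-Tg, and of the 6 endothelial markers 2, beside 2.88% of all tested genes. None of the 6 mural markers was called, nor were the 2 of 8 leukocyte markers that were tested. With the sum of fibroblast, endothelial, leukocyte and mural markers as a covariate, the log2 fold change was 1.64 for Ucp2 and −0.59 for Atpif1. A part of other cells in these values was not tested.

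The subunits of the enzyme that IF1 binds were not called. Of 24 ATP synthase genes (subunits of both parts and assembly factors, mt-Atp6 and mt-Atp8 included) all were tested, none was called in either direction by edgeR, and 3 had an unadjusted p under 0.05, against 2117 of all 10945 genes. DESeq2 likewise called none. Their log2 fold changes had a median of 0.04 and ran from −0.30 (mt-Atp8) to 0.32 (Atp5g2). The catalytic subunits were at 0.20 (Atp5a1, standard error 0.09) and 0.18 (Atp5b, standard error 0.09). The log2 ratio of Atpif1 to the median of these 24 genes was −1.38 ± 0.28 in WT against −1.99 ± 0.21 in B3AR-Tg, a shift of −0.61. In 7 of 8 B3AR-Tg animals the ratio was below the lowest WT animal.

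**Figure D3:**
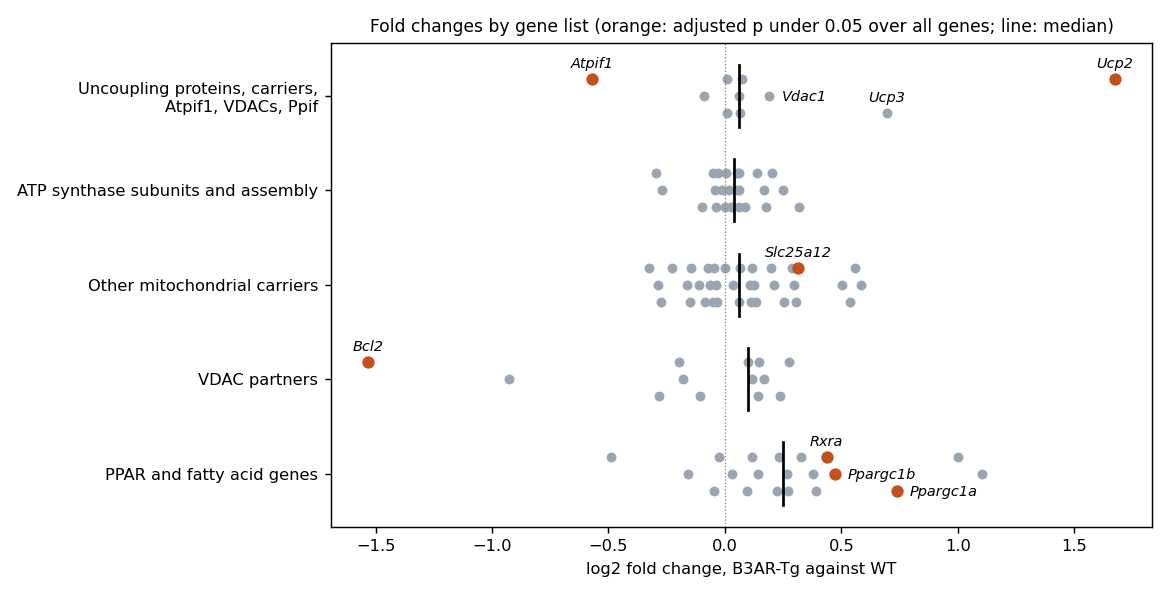
Log2 fold change of B3AR-Tg against WT (x axis) for the tested genes of 5 lists (y axis, points spread within a list only for visibility); orange points passed an adjusted p of 0.05 over all tested genes and black lines are list medians. The 24 ATP synthase genes lie between −0.30 and 0.32 with none called, while Atpif1 lies at −0.57 and Ucp2 at 1.68.

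Slc25a3 (ENSMUSG00000061904), the phosphate carrier, was not called. It ranged from 799 to 1059 CPM in WT (median 905 CPM) and from 818 to 1098 CPM in B3AR-Tg (median 1001 CPM). The ranges nearly coincided, and the log2 fold change was 0.07 with a standard error of 0.08 and an interval of −0.08 to 0.23.

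The 3 VDAC genes had different signs. Vdac1 (ENSMUSG00000020402), usually the most abundant channel of the outer membrane, ranged from 460 to 546 CPM in WT (median 498 CPM) and from 500 to 634 CPM in B3AR-Tg (median 566 CPM). Of the B3AR-Tg animals 6 were above the highest WT animal, and the other 2 (replicates 4 and 7) lay within the WT range. Its log2 fold change was 0.19 with a standard error of 0.07 and an interval of 0.05 to 0.32. Vdac1 was not called by edgeR, and it was called by DESeq2 (0.19) and with library totals alone (0.27).

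Vdac2 (ENSMUSG00000021771), the channel that also binds the cell death proteins Bak and Bax, ranged from 367 to 498 CPM in WT (median 438 CPM) and from 351 to 459 CPM in B3AR-Tg (median 417 CPM). The groups overlapped, with a log2 fold change of −0.09, a standard error of 0.08 and an interval of −0.24 to 0.06. Vdac3 (ENSMUSG00000008892), the third channel, ranged from 241 to 291 CPM in WT (median 262 CPM) and from 244 to 312 CPM in B3AR-Tg (median 278 CPM). Its groups overlapped as well, with a log2 fold change of 0.06, a standard error of 0.07 and an interval of −0.08 to 0.20.

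Within an animal the channels were compared with Vdac1. The log2 ratio of Vdac2 to Vdac1 was −0.21 ± 0.16 in WT and −0.49 ± 0.14 in B3AR-Tg, and 5 of 8 B3AR-Tg animals were below the lowest WT animal. The log2 ratio of Vdac3 to Vdac1 was −0.93 ± 0.09 in WT and −1.06 ± 0.06 in B3AR-Tg, with 3 animals below the lowest WT animal. Both ratios overlapped between genotypes and were not tested. They describe members chosen with this contrast known, and do not show which gene changed.

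Ppif (ENSMUSG00000021868) ranged from 65.2 to 105 CPM in WT (median 83.6 CPM) and from 77.9 to 98.3 CPM in B3AR-Tg (median 84.5 CPM). The B3AR-Tg range lay inside the WT range. The log2 fold change was 0.06 with a standard error of 0.09 and an interval of −0.11 to 0.24.

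Of 13 partners of the channels and of the pore (hexokinases, Bcl2 family genes, Tspo, Ckmt2 and others) all were tested, none was called higher and 1 was called lower, with a median log2 fold change of 0.10. Of all tested genes 2.88% were called lower. At an unadjusted p under 0.05 there were 2 of the 13, and 2117 of the 10945 over the whole table. The gene called was Bcl2, an inhibitor of cell death at the outer membrane. Its level fell to 6.08 ± 3.29 CPM in B3AR-Tg, against 17.5 ± 7.82 CPM in WT (edgeR adjusted p = 0.00627), at a log2 fold change of −1.53 and a standard error of 0.30. The median sums of fibroblast, endothelial and leukocyte markers were lower in B3AR-Tg too, and that of mural markers was not (96.3 CPM in WT against 103 CPM). With the sum of these lists as a covariate the Bcl2 log2 fold change was −1.0 (adjusted p = 0.142), with the leukocyte markers alone −1.29 (adjusted p = 0.0660), and with the load score described below −0.13 (adjusted p = 0.941). Hk2, the hexokinase that docks on VDAC in heart, had a log2 fold change of 0.17 (standard error 0.10) and was not called.

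A list of 20 genes of the PPAR nuclear receptors and fatty acid use was read beside Ucp2 and Ucp3, which are known targets of that pathway. All 20 were tested, 3 were called higher, beside 2.03% of all tested genes, and none was called lower. An unadjusted p under 0.05 was reached by 9 of the 20, and by 2117 of all 10945 genes. In this list the median log2 fold change was 0.25, beside 0.01 over all tested genes. Like the other related lists, it was chosen with earlier results of these data known, so nothing is read from its share. The genes called were Rxra, the partner receptor of the PPARs (27.4 ± 4.61 to 37.0 ± 4.39 CPM, log2 fold change 0.44, standard error 0.10, edgeR adjusted p = 0.0202), and the coactivators Ppargc1b (6.79 ± 1.10 to 9.44 ± 1.40 CPM, 0.47, standard error 0.13, adjusted p = 0.0356) and Ppargc1a (86.0 ± 13.4 to 143 ± 69.3 CPM, 0.74, standard error 0.20, adjusted p = 0.0384). Log2 fold changes were positive for 16 of the 20 genes, beside 51.1% of all tested genes. The 4 negative ones were Pparg (−0.49), Fabp3 (−0.16), Angptl4 (−0.05) and Cd36 (−0.03), none of them called. Ppara, at a log2 fold change of 0.33, and Pdk4, at 0.38, were not called. The fatty acid oxidation genes Cpt1b (0.14), Hadha (0.22), Hadhb (0.12) and Acadm (0.09) were not called either.

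The calls of both coactivators were lost on leaving out single animals. The Ppargc1a call was lost without any of 10 libraries (WT replicates 2, 4, 5, 6, 7 and 8 and B3AR-Tg replicates 1, 3, 5 and 6), with adjusted p between 0.0513 and 0.0721. The Ppargc1b call was lost without any of 8 (WT replicates 1, 2, 4 and 8 and B3AR-Tg replicates 2, 3, 4 and 5), with adjusted p between 0.0514 and 0.0850. Over the 4 related lists together 92 of 102 genes were tested, 4 were called higher and 1 lower. The higher count was 1 without WT replicate 4, and 2 without WT replicate 2, WT replicate 8, B3AR-Tg replicate 3 or B3AR-Tg replicate 5. The lower count was 2 without WT replicate 3, WT replicate 5 or B3AR-Tg replicate 1. With the other-cell markers, the leukocyte markers or the load score as a covariate both counts were 0. With the other-cell markers the log2 fold change was 0.42 for Rxra, 0.79 for Ppargc1a, 0.41 for Ppargc1b and 0.21 for Slc25a12. With the leukocyte markers it was 0.42, 0.79, 0.40 and 0.27 in the same order, and with the load score 0.36, 0.83, 0.31 and 0.28. With DESeq2 the 4 lists together held 6 genes called higher and 1 lower, and with voom 3 higher and 1 lower. Where a single list had no call in a direction in the main fit, it had none with DESeq2 or voom either.

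The members spanned a wide range of levels, read per length as CPM per kb of a GENCODE M21 transcript. In WT the order was Slc25a4 (1980 ± 182 CPM per kb), Slc25a3 (569 ± 49.0), Vdac1 (248 ± 14.1), Vdac2 (222 ± 18.2), Atpif1 (210 ± 30.5), Vdac3 (195 ± 14.7), Slc25a5 (189 ± 22.2), Ppif (52.9 ± 8.22), Ucp3 (4.41 ± 1.40) and Ucp2 (3.48 ± 1.22 CPM per kb). The 5 genes from Vdac1 to Slc25a5 formed a block in which neighbours overlapped between animals, and so did Ucp3 with Ucp2. The order of Ucp3 and Ucp2 in WT depends on the transcripts used, of 2448 and 3988 bases. In CPM the WT mean of Ucp2 (13.9) was above that of Ucp3 (10.8). Slc25a4, Slc25a3 and Ppif each stood clear of their neighbours. In B3AR-Tg, Atpif1 was at 142 ± 14.9 CPM per kb, and its highest animal (163 CPM per kb) was below the lowest for Slc25a5 (166 CPM per kb), the next gene above it in that genotype. Ucp2 was at 11.1 ± 3.45 and Ucp3 at 7.10 ± 5.80 CPM per kb in B3AR-Tg, so the uncoupling proteins were the least abundant members in both genotypes.

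**Figure D4:**
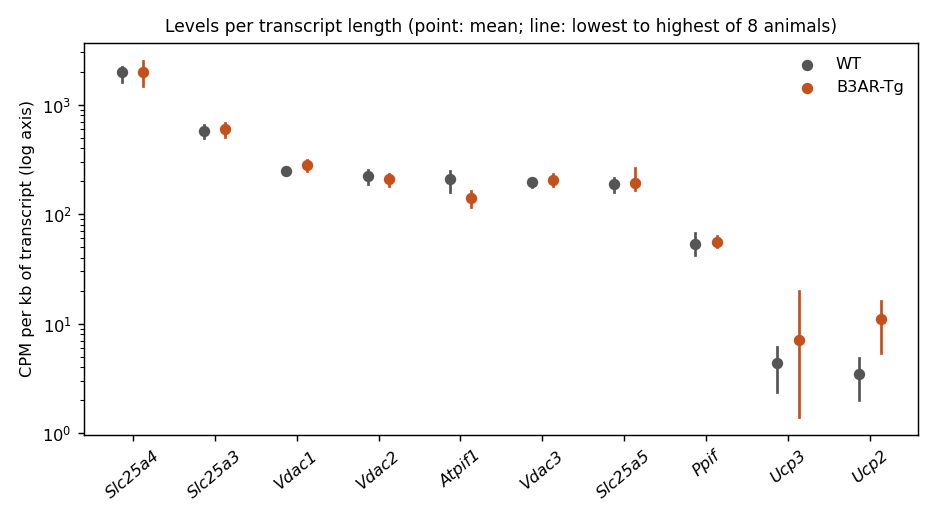
Level of each gene per length of its transcript (y axis, CPM per kb, log axis) in WT and B3AR-Tg; points are means over 8 animals and lines run from the lowest to the highest animal. Slc25a4 lies near 1980 CPM per kb in WT, the group from Vdac1 to Slc25a5 between 189 and 248, and the uncoupling proteins below the rest.

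Genes that respond to pressure load in myocytes moved with genotype. All 5 load markers fell: Nppa by 3.99, Myh7 by 2.03, Acta1 by 1.74, Ankrd1 by 1.16 and Nppb by 1.13 on the log2 scale. The call of Acta1 was lost without WT replicate 2 or B3AR-Tg replicate 5 and that of Nppb without WT replicate 4 or B3AR-Tg replicate 5, with adjusted p between 0.0507 and 0.0562. With the other-cell markers as a covariate none of the 5 was called: the log2 fold change was −3.17 for Nppa (adjusted p = 0.0868), −1.61 for Myh7 (0.138), −1.45 for Acta1 (0.219), −0.76 for Ankrd1 (0.220) and −0.90 for Nppb (0.199). Ankrd1 was also not called with the replicate block (adjusted p = 0.0520), nor were Ankrd1, Acta1 and Nppb with the leukocyte markers as a covariate (adjusted p between 0.102 and 0.147). The mean log2(CPM + 1) of the 5 markers, taken as a load score, was 9.38 to 11.3 in WT and 7.50 to 9.60 in B3AR-Tg, with B3AR-Tg replicate 7 the highest of its group. With the score as a covariate the Ucp2 log2 fold change was 1.06 and that of Atpif1 was −0.36, neither was called, and over all genes 4 were called higher and 3 lower. Because the score and the genotype overlapped so little, their parts in the values of Ucp2 and Atpif1 cannot be told apart.

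The score could be read within a genotype, where the choice of members had used no value. Of 40 relations (10 members, 2 genotypes, the load score and a score of other cell types), 3 had a Pearson p under 0.05 and none passed adjustment over the 40. The strongest was Vdac3 with the load score in WT, where r was −0.875 (exact permutation p = 0.0106, adjusted p = 0.310) and rho was −0.881. Without the 2 animals farthest from the median score r was −0.751. For Vdac1 in WT r was −0.796 (exact permutation p = 0.0211, adjusted p = 0.310) and rho was −0.833, and r was −0.567 without the 2 farthest animals. In B3AR-Tg r was −0.320 for Vdac3 and −0.588 for Vdac1, and without the 2 farthest animals the signs turned, to 0.797 and 0.291. The other relation was Vdac3 with the other-cell score in WT (r = −0.775, rho = −0.810, exact permutation p = 0.0233, adjusted p = 0.310), with r at −0.566 without the 2 farthest animals.

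For Ucp2, r with the load score was −0.311 in WT and −0.593 in B3AR-Tg, and for Atpif1 it was 0.543 and 0.194, all with an adjusted p above the threshold in the exact permutation test. Without the 2 farthest animals of each genotype these were 0.515 and −0.724 for Ucp2, turning its sign in WT, and 0.454 and 0.000468 for Atpif1. The labels named no batch within which the relations could be repeated.

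**Figure D5:**
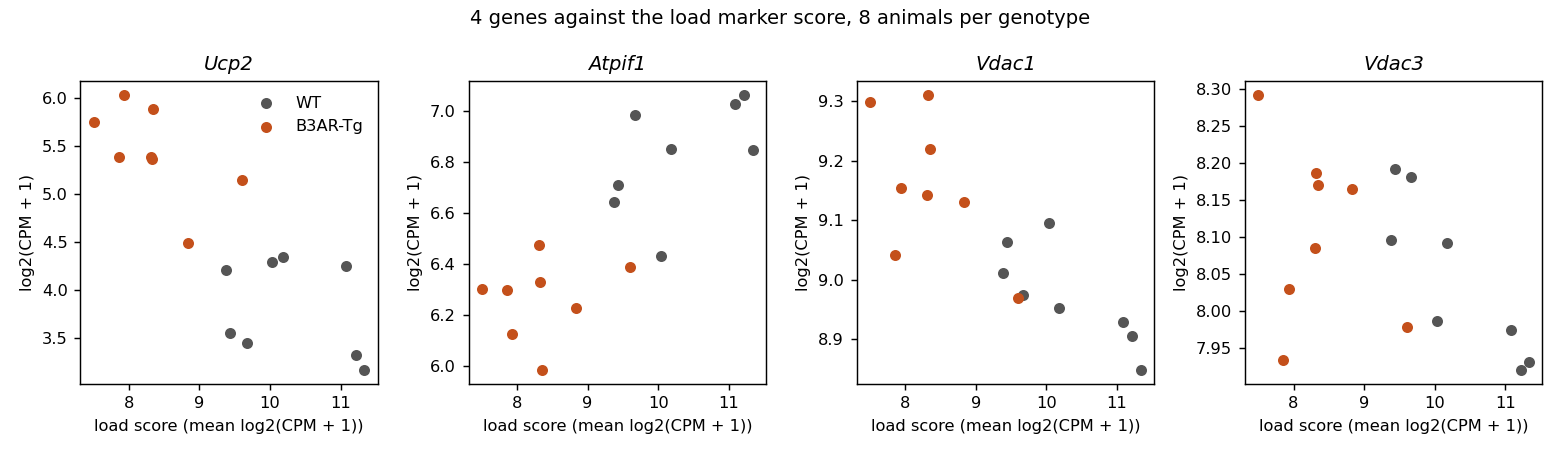
Levels of Ucp2, Atpif1, Vdac1 and Vdac3 as log2(CPM + 1) (y axes, not starting at 0) against the load score, the mean log2(CPM + 1) of 5 load markers (x axis), with 8 WT and 8 B3AR-Tg animals as points. The genotypes meet on the x axis only between 9.38 and 9.60, and within WT Vdac1 and Vdac3 are lower in the animals with the higher score.

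With the genotype means removed, the correlations among the 10 members over the 16 animals were positive in 30 of 45 pairs, with a median of 0.17 and a range from −0.63 (Atpif1 with Ppif) to 0.73 (Vdac1 with Vdac3). Slc25a4 correlated with both of these channels at 0.68. Ucp2 and Atpif1, the members that were called, had a correlation of −0.41. These are descriptions of genes read in the same libraries, and no test was made.

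By the same measure the genes most like Ucp2 among 8026 tested genes with a mean of at least 5 CPM were Stk24 (0.76), Rab7 (0.75), Foxo3 (0.73), Lifr (0.73) and Plxnd1 (0.71). Those most like Ucp3 were Ddx28 (0.85), Pank1 (0.85), Ccdc124 (0.83), Uros (0.81) and Tomm40l (0.80). In WT alone the correlation of Ucp3 with Ddx28 was 0.33 and with Pank1 0.53, against 0.93 and 0.98 in B3AR-Tg, where B3AR-Tg replicate 3 had the highest Ucp3. Those most like Atpif1 were Zfp110 (0.88), Zfp874a (0.87), LIN54 (0.86), Sh3bgrl (0.86) and Rabep1 (0.85), and within a genotype these ran from 0.78 to 0.97.

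Reads of near-identical copies could be misassigned. Copies with at least 90% identity over at least 200 bases were found for Slc25a5 (7), Vdac3 (2), Atpif1 (2), Slc25a3 (1) and Vdac2 (1), and for none of the other members. The copies held 10 counts in all beside 37446 for Slc25a5, and 25 beside 43136 for Vdac3, 0.0267% and 0.058% of the member's own counts. The copies of Atpif1 held 0 counts. The paralogs among the members were further apart, with Slc25a4 and Slc25a5 78.0% identical over 905 bases and Ucp2 and Ucp3 74.9% identical over 908 bases.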

How the data were processed

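RNA-seq after ribosomal depletion was read from both ends, per the labels' protocols. The authors deposited whole-number counts per gene for 16 animals, without normalization. The submitters' processing notes name Salmon and GRCm39 with no role or version, so the counts may be rounded estimates; aligner, strand setting and annotation are not given in the sources used here. Genotype came from the labels. edgeR 4.0.16 (R 4.3.3) used TMM factors, filterByExpr (minimum count 10, total 15), genotype as the only term and Benjamini-Hochberg adjustment over 10945 genes, two-sided. The p-values measure the spread between these animals. Intervals are 95% normal intervals. Correlations used log2(CPM + 1) and exact two-sided permutation (scipy 1.17.1). Copies were sought with BLAST 2.17.0. Transcript lengths were from GENCODE M21 and promoters from RefSeq, both on GRCm38. Atp5o stands on 2 rows, and the first was used. The tests were tested on simulated data.

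Named genes were the 10 members, up to 4 called genes per related list with the smallest p, the load markers, the 5 genes most like Ucp2, Ucp3 and Atpif1, the neighbours of Ucp2 and Ucp3, and copies; other genes named for context were chosen after their values were seen. The members and lists were chosen with earlier results of these data known. Alternatives covered scaling, filters, DESeq2 1.42.0, limma 3.58.1 voom with sample weights, covariates, a replicate block, thresholds and the removal of each animal.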

Additional observations from a re-analysis of the deposited data

Results flagged for a closer look

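Slc25a5 in B3AR-Tg replicate 3 lay apart from its group: at 327 CPM it was the highest of the 16 animals, and the next B3AR-Tg animal was at 255 CPM. On the log2 scale the gap to the nearest animal was 0.534 of the group's whole range, above the Dixon value of 0.526 for 8 animals. It was 1 such case in 30 groups searched, where chance gives about 1.5.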

How the results depend on the processing

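The leukocyte covariate, and the removal of single animals from the relations, were chosen after seeing the data. Ucp2 and Atpif1 kept their direction under all 31 alternatives and their call under 30. These refit the libraries on which the members were chosen, so this supports nothing. With the load score as a covariate 0 members were called higher and 0 lower. With library size only and with DESeq2, 2 members were called higher, the second being Vdac1. Of the related lists, 4 genes were called higher and 1 lower. These counts were 0 and 0 with the other-cell covariate, with the load covariate and with the leukocyte covariate. An adjusted p of 0.01 left 0 higher and an adjusted p of 0.1 gave 2 lower. Without each animal in turn the counts ran from 1 to 6 higher and from 1 to 2 lower. The cause was not tested.

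Slc25a4 and Slc25a5 had no stable sign. Slc25a4 (0.01) was at −0.00036 with the stricter filter, −0.026 with voom, −0.047 with the animal number, −0.12 with the other-cell covariate, −0.13 with the load covariate and −0.066 with the leukocyte covariate, and ran from −0.046 to 0.062 without each animal in turn. Slc25a5 (0.01) was at −0.070 with voom, −0.042 with the animal number and −0.027 with the other-cell covariate, and ran from −0.071 to 0.042 without each animal. Vdac2 was at 0.036 with the load covariate, where Vdac3 was at −0.13, Myh7 at 0.25 and Ankrd1 at 0.31. Vdac3 was at −0.017 with the other-cell covariate. Without each animal in turn, 0 to 2 of the relations passed, the 2 without WT replicate 7.

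No sign was seen that the replicate numbers paired the animals. Over 8 same-numbered pairs the correlation of deviations ran from −0.279 to 0.0953, and 0 animals correlated best with their own number. A pairing that touched few genes would not show in this check. With the replicate block, 2 related genes were called higher, Slc25a4 was at −0.0048, Ucp3 at 0.38, Ucp2 at 1.67 and Atpif1 at −0.56.

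Over all genes, 222 were called higher and 315 lower. The counts were 93 and 137 with the replicate block, 32 and 17 with the other-cell covariate, 68 and 54 with the leukocyte covariate, and 4 and 3 with the load covariate. They were 43 and 66 at an adjusted p of 0.01, and 379 and 529 at 0.1. With DESeq2 486 were called lower, while the higher count stayed within 1.5 times of 222. Without 1 animal the higher counts ran from 113 to 278 and the lower from 159 to 397. Both fell by over 1.5 times without WT replicate 4, B3AR-Tg replicate 5 or B3AR-Tg replicate 8.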

Other observations

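The B3AR-Tg animals also differed among themselves in the genes of fatty acid use, and the values below were chosen after they were seen. B3AR-Tg replicate 3, the animal with the highest Ucp3, was the highest of its group for 4 of the 20 genes on the PPAR and fatty acid list. This did not set it apart, since B3AR-Tg replicate 1 and B3AR-Tg replicate 4, the animal with the lowest Ucp3, were each the highest for 5, B3AR-Tg replicate 2 for 4 and B3AR-Tg replicate 5 for 2. B3AR-Tg replicate 3 held 112 CPM of Plin5, a lipid droplet protein, where the other B3AR-Tg animals ranged from 52.8 to 98.3 CPM. Acot2, a mitochondrial thioesterase, was at 109 CPM in it, against 41.3 to 87.6 CPM in the others. The remaining 2 were Rxra (45.3 CPM, others 32.5 to 39.6) and Mlycd (68.3 CPM, others 41.4 to 62.9). It was not high throughout, since Cpt1a was at 14.5 CPM there and at 18.5 to 34.2 CPM in the others. B3AR-Tg replicate 7, with the highest load score of its group, was the lowest of the B3AR-Tg animals for 14 of the 20 genes. The same count over all tested genes is not given here, so a trait of the whole library cannot be told from a trait of this list. A link to the load score was not tested.

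With the genotype means removed, Ucp3 correlated positively with 16 of these 20 genes over the 16 animals (median 0.17, highest 0.62 for Plin5). Ucp2 did so with 12 of the 20 (median 0.04). These are descriptions, and no test was made.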
